A study of Mus musculus with 33 samples.

Results

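The libraries compared here are the 4 of mice given nicotinamide (NAM, the amide form of vitamin B3) for 3 days and the 3 of untreated mice, all under the label lymph node. They were chosen by the group and tissue in their sample titles, and make up 7 of the 33 libraries of the series. Treated animals drank water containing NAM at 0.5%, and untreated animals did not. All animals were tumour-free C57Bl/6 mice with no transgene, and nothing was given in common to both groups. The labels state neither sex nor age. The methods of the study describe female mice, with a range of ages in weeks, for its experiments in general. The labels do not say whether a library is 1 animal or a pool, so the p-values below measure the spread between libraries, which may be partly technical. The other libraries under this label, 2 at 1 day and 4 at 14 days of NAM, entered the same fit and serve as a comparison at the end.

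Polyadenylated RNA was sequenced, and each value is a read count of a gene divided by a scaling factor of its library (normalised count). The 7 libraries held 31625621 to 44846118 reads. A gene was tested if its mean over the 13 libraries was at least 10 normalised counts, which left 18215 genes. Fold changes are differences of log2(normalised count + 1), given with the standard error (SE), for 4 treated against 3 untreated libraries, and a gene is said to rise or fall at a Benjamini-Hochberg adjusted p under 0.05 in limma.

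The tissue marker genes went largely against the label. All 8 spleen genes were detected in every library, and Glycam1, Chst4 and Lyve1 of the lymph node list were low while others were not. Of 8 genes listed as spleen markers all 8 passed the filter. Spic, the transcription factor of red pulp macrophages, was measured at 6117 to 10491 normalised counts over the 13 libraries. Tlx1, needed for the spleen to form, was measured at 351 to 573 counts and Nkx2-5 at 167 to 267. The rest were Nkx2-3 (458 to 640), Vcam1 (6170 to 13628), Itgad (4652 to 8384), Treml4 (2053 to 3699) and Cd5l (4927 to 8350). Glycam1, an abundant product of lymph node high endothelial venules, stayed between 1.59 and 12.4 counts, and the lymphatic vessel gene Lyve1 between 3.46 and 38.0. Chst4 stayed between 6.12 and 45.2. Other genes of the same list of 8 were detected in every library. The lymphatic vessel genes Flt4 and Prox1 were measured at 161 to 303 and 55.7 to 148 counts. Madcam1, a vessel adhesion molecule for lymphocytes, was measured at 577 to 956 counts, and Fut7, which helps to make selectin ligands, at 93.7 to 168. These levels are not per length, so they are not ranked against the spleen genes. The lymphoid chemokine Ccl21a, which both organs make, was measured at 6181 to 14387 counts. None of the 8 spleen genes and none of the 7 tested lymph node genes passed the test between 3 days and untreated (0 and 4 at an unadjusted p under 0.05, in limma). The spleen genes at these levels, with Glycam1, Chst4 and Lyve1 this low, go against the label lymph node. The label is kept here only as a name for the libraries, and no other organ is assigned to them. Replicate 1 at 1 day stood apart from the other 12 libraries and held pancreas transcripts. The 10 tested genes of the pancreas list summed to 126926 normalised counts in it and to 628 to 1270.3 in the other 12, and 2 of the 10 would have passed the filter without it. Counts are given with and without this library at the end.

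In the mouse, red blood cell formation continues in the red pulp of the adult spleen beside the bone marrow, whereas a lymph node normally holds almost none. Progenitors that respond to erythropoietin through Epor switch on the transcription factors Gata1 and Klf1, take up transferrin iron through Tfrc, and build haem, globin and the membrane skeleton in turn. The nucleus is expelled last, and the reticulocyte that remains loses its RNA as it matures. NAM is a precursor of NAD, is salvaged by Nampt and is methylated for excretion by Nnmt.

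After 3 days of NAM, 226 of the 18215 genes differed from untreated libraries, which is 1.24% of genes. Of these, 165 were lower (0.906% of genes tested) and 61 were higher (0.335%). The falls were the larger changes. Called falls had a median of -1.20 and reached -5.43 on the log2 scale, while called rises had a median of 0.38 and went no higher than 1.18. The median over all genes was 0.00046. Erythroid genes made up 47 of the falls and none of the rises, leaving 179 genes outside the erythroid lists, 118 lower and 61 higher. The count rested on single libraries: it was 85 without untreated replicate 2, 133 without untreated replicate 3, 136 without 3 day replicate 2 and 145 without 3 day replicate 3. The 179 calls outside the erythroid lists fell to 53 without untreated replicate 2, and to between 98 and 109 without untreated replicate 1 or 3 or 3 day replicate 2 or 3. The rises were the less stable: they numbered 11 without untreated replicate 2, 20 and 29 without untreated replicates 1 and 3, 32, 21 and 22 without 3 day replicates 1, 2 and 3, and 104 without 3 day replicate 4. The falls numbered 74 without untreated replicate 2, 104 without untreated replicate 3 and 115 to 198 without any other library of the 2 groups. At an unadjusted p under 0.05, 2694 genes differed (14.8%).

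**Figure D1:**
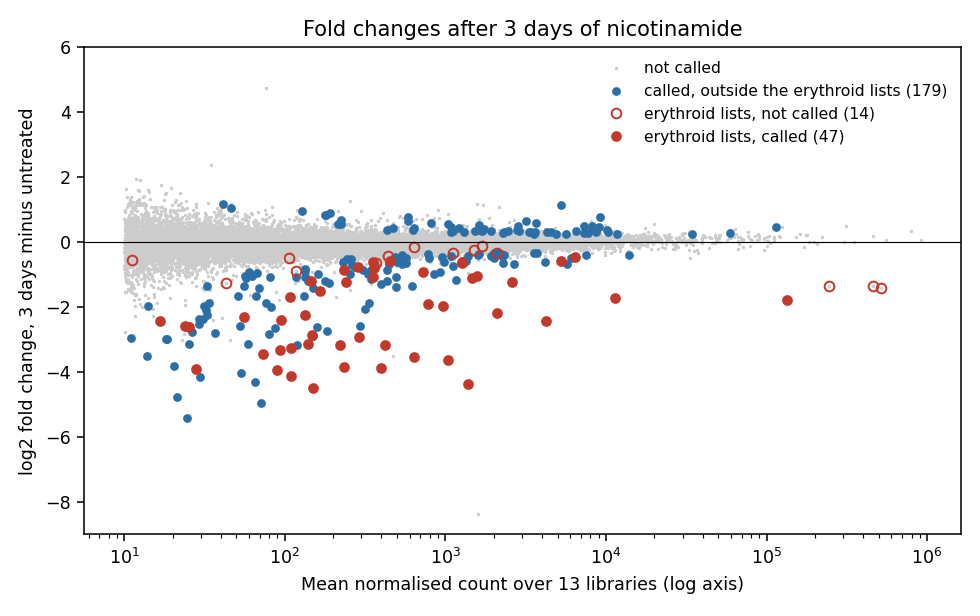
Log2 fold change at 3 days against untreated (vertical axis) by mean normalised count over 13 libraries (horizontal log axis), 1 point per gene tested. All 47 called erythroid genes lie below 0, and the called genes above 0 lie at or under 1.18.

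The erythroid genes fell as a group. Of 67 names listed in 6 erythroid lists, 61 genes passed the filter, 47 of them fell (0.906% of all genes tested fell), 14 did not pass the test, and all 61 had a negative log2 difference. Their median was -1.50. The groups did not overlap for 53 of the 61 genes, against 15.3% of all genes. Hba-x and Hbb-y, globins of the embryo, were under the filter, and Ahsp and the names Hbb-b1, Hbb-b2 and Epb49 had no row of their own. In bulk RNA, fewer erythroid cells and less RNA per erythroid cell cannot be told apart.

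An erythroid score, the mean log2 value of the 61 genes, described each library. It was 9.49, 9.97 and 9.85 in the untreated libraries and 8.44, 7.25, 7.84 and 8.07 at 3 days. Every treated library lay below every untreated one, and the second replicate at 3 days was the lowest of all 13. The mean fell by 1.87 on the log2 scale. The 4 adult globin genes took 8.504%, 4.11% and 6.68% of the reads of the untreated libraries and 3.92%, 0.923%, 2.54% and 3.08% of those at 3 days. Their groups lay apart by a narrow margin, since untreated replicate 2 was close to 3 day replicate 1. The other 57 erythroid genes together took 0.244% to 0.281% of reads in untreated libraries and 0.0841% to 0.132% at 3 days.

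**Figure D2:**
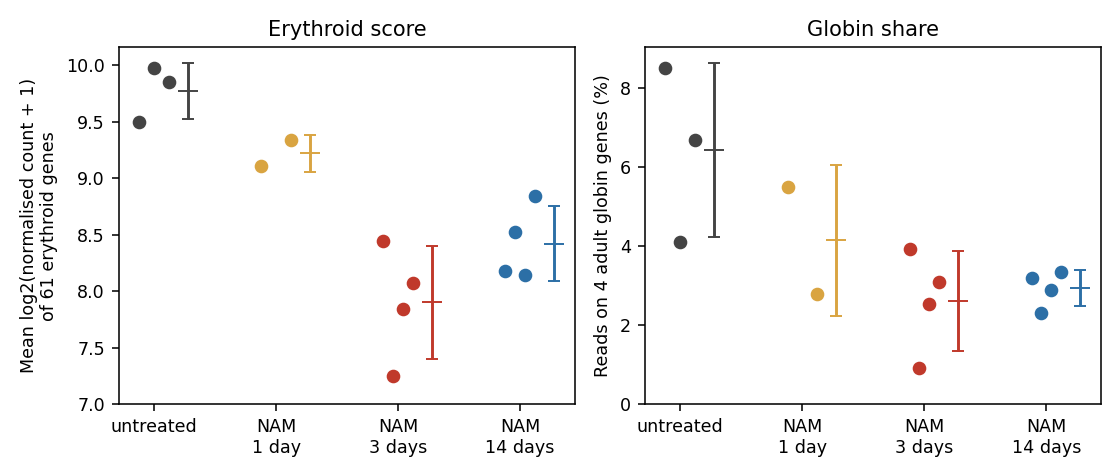
Left, the mean log2(normalised count + 1) of 61 erythroid genes in each of 13 libraries, by group. Right, the percentage of reads on 4 adult globin genes. Points are libraries, and the bar beside them is the mean with SD (n = 3, 2, 4 and 4). The score at 3 days spans 7.25 to 8.44, all below the untreated 9.49 to 9.97.

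Receptors and iron uptake genes fell in 6 of 7 cases, with a median of -0.76. Epor, the erythropoietin receptor (chr9:21958898-21963576), had 261, 444 and 385 normalised counts in the untreated libraries and 188, 157, 209 and 233 at 3 days. No treated library reached the lowest untreated one, and the fold change was -0.86 ± 0.18 (adjusted p = 0.0227). Tfrc, the transferrin receptor, had 371, 444 and 319 counts untreated and 254, 226, 169 and 242 at 3 days (-0.76 ± 0.16, adjusted p = 0.0303). The second transferrin receptor, Tfr2, which also binds the erythropoietin receptor, fell further. Its counts were 166, 368 and 157 untreated and 36.5, 31.0, 40.1 and 54.6 at 3 days (-2.39 ± 0.29, adjusted p = 0.000587). Slc25a37, the mitochondrial iron importer mitoferrin, fell by less, at -0.47 ± 0.07. Slc25a38, a mitochondrial glycine carrier, had a difference of -0.16 ± 0.09 and did not pass (adjusted p = 0.447).

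Transcription factors fell in 5 of 7 cases (median -1.25). Klf1, the factor that drives globin and red cell membrane genes (chr8:84901928-84905295), had 386, 798 and 418 counts in untreated libraries. At 3 days it had 119, 20.3, 40.1 and 90.8, and the fold change was -3.18 ± 0.48 (adjusted p = 0.00213). The treated range was the wider in relative terms, with replicate 2 the lowest. Gata1 (chrX:7959260-7976574) had 315, 611 and 361 counts untreated and 173, 154, 193 and 185 at 3 days, a narrow treated range, and fell less (-1.22 ± 0.21, adjusted p = 0.00526). Gata1 also acts in megakaryocytes, mast cells and eosinophils. Gfi1b, a repressor needed for red cells and platelets, fell from 256, 459.8 and 243 to 63.0, 48.6, 73.7 and 75.4 counts (-2.23 ± 0.21, adjusted p = 0.000164). Sox6 and Nfe2 fell by 2.42 and 0.93 on the log2 scale. Tal1 was -1.25 ± 0.34 and Zfpm1 -0.34 ± 0.12, with adjusted p of 0.0985 and 0.184.

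The haem pathway was lower at 4 of its 8 enzymes, and all 8 differences were negative (median -0.64). Alas2, the erythroid enzyme of the committing step, had 27042, 12950.2 and 21304 counts untreated and 10294, 2095, 7148 and 7875 at 3 days (-1.73 ± 0.40, adjusted p = 0.0452). Fech, which inserts iron into the ring, had 2238, 2048 and 2622 counts untreated and 1212, 892, 1175 and 1202 at 3 days (-1.04 ± 0.12, adjusted p = 0.000313). Its replicates were close within each group, unlike those of Alas2. Alas2 shares exon positions with Apex2, which was among the rises (0.43), and with strand use not stated their reads may be mixed. Alad (-0.63 ± 0.14) also fell, while Uros, Urod, Cpox and Ppox had differences of -0.43, -0.34, -0.64 and -0.24 and adjusted p of 0.0703, 0.0602, 0.0761 and 0.121.

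Globins carried the largest read counts, and 1 of 5 tested passed. Hbb-bt, an adult beta globin (chr7:103812524-103813926), had 339104, 153446 and 263629.7 counts untreated and 127647, 26017, 76894 and 88727 at 3 days (-1.79 ± 0.40, adjusted p = 0.0378). Hbb-bs had 1152962, 570520.2 and 909285 untreated and 534263, 131009.9, 359371 and 396876 at 3 days, with a difference of -1.41 ± 0.36 and an adjusted p of 0.0711. Hba-a1 was -1.35 ± 0.38 (adjusted p = 0.108) and Hba-a2 -1.35 ± 0.39 (adjusted p = 0.118). The spread between libraries of a group was wide for these genes, with untreated replicate 2 at about the level of 3 day replicate 1. Hba-a1 with Hba-a2, and Hbb-bs with Hbb-bt, are near-identical copies, so reads may be split between them. The reticulocyte still holds RNA until it matures, and whether globin RNA fell in reticulocytes or in precursors was not tested.

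Membrane and skeleton genes showed the deepest falls, 21 of 22 with a median of -2.90. Epb42, which encodes protein 4.2 (chr2:121017891-121036877), had 213, 341 and 446 counts untreated and 87.3, 1.77, 9.10 and 16.2 at 3 days. Replicate 1 at 3 days stood above the other treated libraries but below all untreated ones, and the fold change was -4.48 ± 0.83 (adjusted p = 0.00989). Slc4a1, the Band 3 anion exchanger (chr11:102348820-102365282), had 1786, 2996 and 4685 counts untreated and 634, 32.7, 102 and 175 at 3 days (-4.38 ± 0.72, adjusted p = 0.00375). In both genes the treated libraries ran in the same order, replicate 1 highest and replicate 2 lowest.

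The Rh complex and Kell fell likewise. Rhag, the Rh-associated glycoprotein, had 162, 336 and 277 counts untreated and 37.6, 3.54, 14.6 and 13.8 at 3 days (-4.13 ± 0.54, adjusted p = 0.000991). Rhd fell from 589, 1107 and 1000.02 to 199, 22.1, 35.5 and 69.2 (-3.89 ± 0.58, adjusted p = 0.0019), and Kel, the Kell blood group protease, from 367, 604 and 568 to 116, 13.3, 22.8 and 35.4 (-3.86 ± 0.54, adjusted p = 0.00115). The skeleton genes Ank1 (ankyrin, -3.32) and Add2 (beta adducin, -3.94) both fell by over 3 log2 units. Other genes of the list fell less, among them Epb41 (protein 4.1, -0.57), Aqp1 (aquaporin, -0.80) and Xk (-0.62). Kcnn4, a potassium channel also of lymphocytes, was the 1 member that did not pass, at -0.12 ± 0.10 (adjusted p = 0.636).

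Enzymes and other red cell genes fell in 10 of 12 cases (median -2.30). Acsl6, an acyl-CoA synthetase of erythroid cells, had 62.3, 167 and 44.2 counts untreated and 8.84, 1.77, 3.64 and 4.62 at 3 days (-3.92 ± 0.50, adjusted p = 0.000843). Pklr, the red cell and liver pyruvate kinase, had 237, 569 and 206 untreated and 27.6, 15.04, 41.9 and 49.2 at 3 days (-3.27 ± 0.42, adjusted p = 0.000959). Car2, a carbonic anhydrase, fell from 6630.3, 11621 and 8978 to 2518, 1028, 1622 and 1720.3 (-2.43 ± 0.26, adjusted p = 0.000236). None of these overlapped between groups. Cited4 and Fhdc1 did not pass, at -0.48 and -0.88 (adjusted p = 0.391 and 0.0703).

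**Figure D3:**
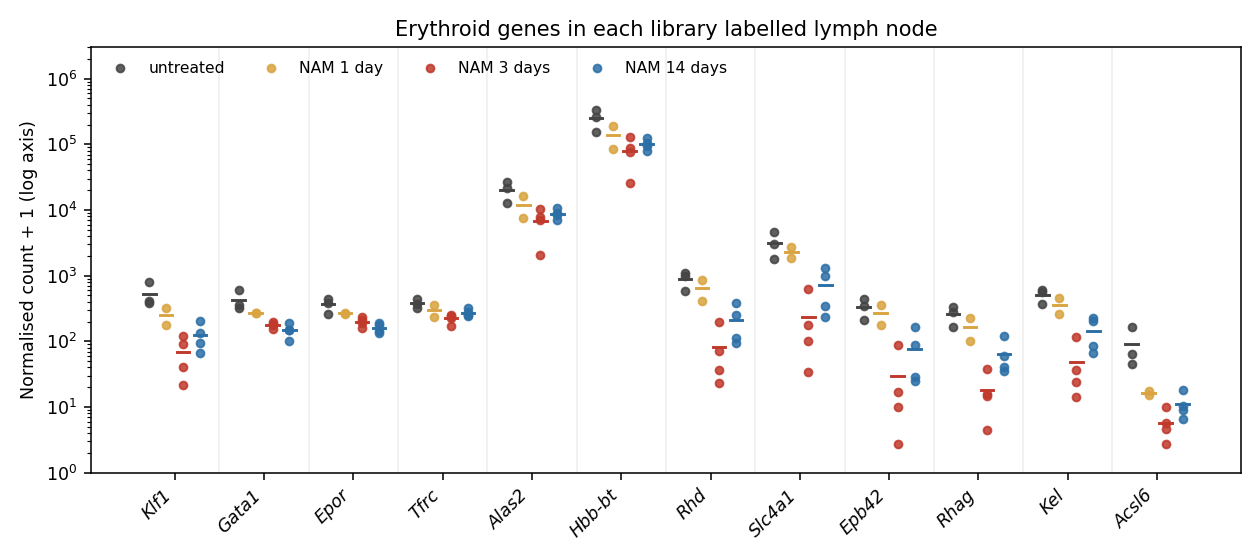
Normalised count + 1 of 12 erythroid genes (log axis) in each of the 13 libraries labelled lymph node, coloured by group, with the group mean as a bar. In every gene the 3 day libraries lie below the untreated ones, from a shift of -0.76 on the log2 scale for Tfrc to -4.48 for Epb42.

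Promoters of called erythroid genes are shown because Gata1 and Klf1, both lower at 3 days, act through short DNA motifs found before many red cell genes. The 250 bases before the first listed start of each gene were taken from the RefSeq table (build GRCm38.p6), which held 34 of the 47 genes. They were searched on both strands for AGATAA or TGATAA (the GATA motif) and for CACACCC or CGCACCC (the CACCC motif), of which a GATA match read on the other strand can share its last 2 bases with CACACCC. The GATA motif was in 14 of the 34 (41.2%), against 17% of 27025 genes in the table. The CACCC motif was in 6 (17.6%, against 9.88%), and both were in 3 (8.82%, against 1.10%), Klf1, Trim10 and Pklr. Those 3 promoters are printed with those of Epb42 and Alas2, which hold the GATA motif alone, 5′ to 3′ on the strand of the gene with each motif in capitals. They lie at chr8:84901732-84901981 (plus strand), chr17:36869324-36869573 (plus strand), chr3:89135892-89136141 (plus strand), chr2:121036878-121037127 (minus strand) and chrX:150547167-150547416 (plus strand). A match of letters is a description and no evidence of binding.
Klf1: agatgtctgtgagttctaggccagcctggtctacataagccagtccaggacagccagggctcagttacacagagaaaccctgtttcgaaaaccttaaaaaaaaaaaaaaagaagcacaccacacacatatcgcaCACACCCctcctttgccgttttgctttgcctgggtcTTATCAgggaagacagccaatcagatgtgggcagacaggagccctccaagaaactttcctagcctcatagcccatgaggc
Trim10: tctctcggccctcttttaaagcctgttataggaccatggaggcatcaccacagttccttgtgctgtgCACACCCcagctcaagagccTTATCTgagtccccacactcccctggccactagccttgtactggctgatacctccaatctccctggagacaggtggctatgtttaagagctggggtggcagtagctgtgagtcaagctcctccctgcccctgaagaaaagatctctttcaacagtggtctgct
Pklr: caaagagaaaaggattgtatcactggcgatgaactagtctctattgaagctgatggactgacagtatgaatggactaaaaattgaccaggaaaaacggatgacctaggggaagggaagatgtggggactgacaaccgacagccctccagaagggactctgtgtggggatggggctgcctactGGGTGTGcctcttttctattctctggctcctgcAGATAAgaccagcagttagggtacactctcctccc
Epb42: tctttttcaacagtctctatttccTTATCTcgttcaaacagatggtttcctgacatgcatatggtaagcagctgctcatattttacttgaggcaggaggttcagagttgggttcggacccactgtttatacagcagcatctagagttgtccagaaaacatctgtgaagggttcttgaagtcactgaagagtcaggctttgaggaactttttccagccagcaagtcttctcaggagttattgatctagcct
Alas2: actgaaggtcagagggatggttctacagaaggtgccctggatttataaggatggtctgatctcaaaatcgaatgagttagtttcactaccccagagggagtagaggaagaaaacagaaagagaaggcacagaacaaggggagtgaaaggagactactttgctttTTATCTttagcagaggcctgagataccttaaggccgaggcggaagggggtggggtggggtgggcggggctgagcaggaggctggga

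Trim10, an E3 ligase of erythroid cells whose promoter holds both motifs, had 850.2, 989 and 2483 counts untreated and 344, 23.0, 122 and 145 at 3 days (-3.54 ± 0.65, adjusted p = 0.00935). Klf1, Pklr and Epb42 fell by over 3 log2 units and Alas2 by 1.73, as given above.

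The changes outside the erythroid lists were separated by whether a gene moved with the erythroid score among replicates. The mean of each group was subtracted from the log2 values of the 13 libraries, and the deviations of a gene were correlated with those of the score (Pearson r, a description across libraries that share depth and tissue, with the gene itself left out of the score). Within-group r was at least 0.7 for 0.988% of all 18215 genes and for 22 of the 47 called erythroid genes. Outside the lists it was at least 0.7 for 20 of the 118 falls and 0 of the 61 rises. Of those 20, 3 were unnamed rows lying inside Hbb-bs, Hbb-bt and Hba-a1, and 17 were other genes. Another unnamed row inside Hbb-bt also fell, with r of 0.47. That left 97 falls that neither belonged to the lists nor moved with the score at this threshold, with a median within-group r of 0.25, against -0.0076 over all genes and -0.05 for the rises. The threshold also missed called erythroid list genes such as Gata1 (r = 0.36) and Tfr2 (r = 0.13). The 97 may therefore hold erythroid genes, and they are not shown to be apart from the erythroid change.

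**Figure D4:**
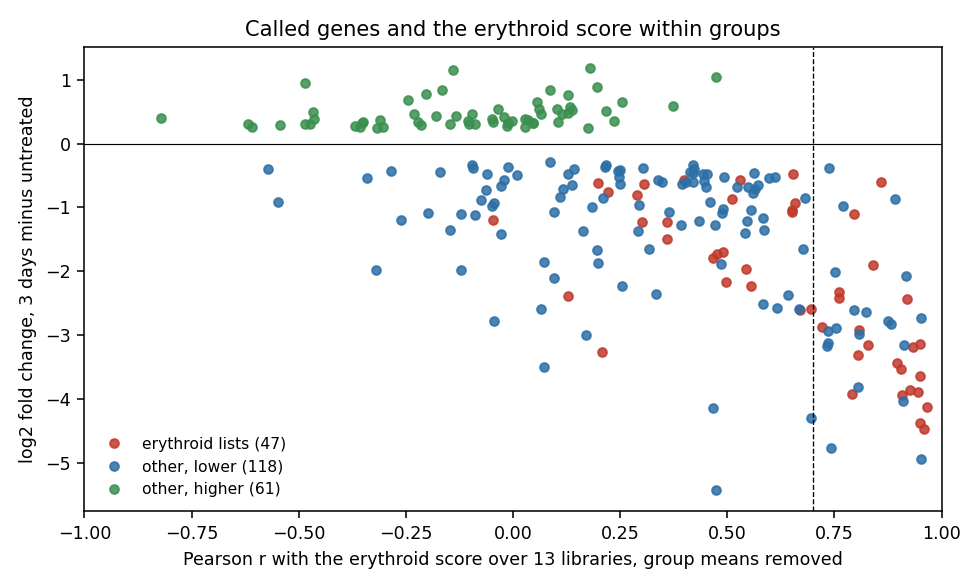
Log2 fold change at 3 days (vertical axis) against the within-group Pearson r with the erythroid score (horizontal axis, 13 libraries with group means removed) for the 226 called genes. The dashed line marks 0.7. To its right lie 22 of the 47 erythroid list genes and 20 other falls, and none of the 61 rises does.

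The 17 falls that moved with the score had a median of -2.79. Apol8, an apolipoprotein L family gene (chr15:77747799-77756983), had 111, 182 and 171 counts untreated and 19.9, 0, 1.82 and 9.23 at 3 days, with r of 0.95 (-4.94 ± 0.79, adjusted p = 0.00334). Redrum, a long non-coding RNA of erythroid cells, had 45.9, 78.3 and 40.9 untreated and 4.42, 0, 1.82 and 0 at 3 days (-4.77 ± 0.61, r = 0.74, adjusted p = 0.000843). Both were at 0 counts in at least 1 treated library, so these fold changes depend on the added count of 1. Tspo2, a cholesterol-binding protein of erythroblasts, had 296, 356 and 508 untreated and 113, 23.9, 53.7 and 66.2 at 3 days (-2.74 ± 0.38, r = 0.95, adjusted p = 0.00115). Hbq1b, a theta globin gene (-2.64), Slc38a5, a glutamine and serine transporter (-2.89), Bex4 (-3.13) and Slc2a4, the insulin-responsive glucose transporter (-2.99), were in the same set, as was Gm20161 (-3.81). The smallest fall was that of Ubac1, at -0.38.

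One of the 17 was the row that spans Mir144/Mir451a (chr11:78072649-78073517), a locus of microRNAs made in red cell precursors under Gata1. It shares exon positions with Eral1. It had 114, 115 and 136 counts untreated and 35.4, 0, 5.46 and 12.3 at 3 days (-4.03 ± 0.86, r = 0.91, adjusted p = 0.028). The row counts polyadenylated RNA over the locus and not the mature microRNAs, which the libraries do not capture. Their mature sequences (RefSeq, GRCm38.p6, plus strand) are printed with the seed, bases 2 to 8, in capitals, and no seed is shared between them.
mmu-miR-144-3p: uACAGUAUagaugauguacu
mmu-miR-144-5p: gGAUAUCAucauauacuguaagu
mmu-miR-451a: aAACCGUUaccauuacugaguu

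The deepest of the 97 other falls were of genes with few reads. Sowaha had 38.8, 118 and 277 counts untreated and 36.5, 3.54, 0 and 4.62 at 3 days (-4.30 ± 0.96, adjusted p = 0.0383), and its r of 0.69 was just under the threshold. The untreated replicates of Sowaha differed more among themselves than the lowest of them did from 3 day replicate 1. Ypel4 was -4.14 (r = 0.47), Slc26a1, a sulphate and oxalate carrier, -3.50 (r = 0.07), and Asb17os -2.999 (r = 0.17). Slc26a1 shares exon positions with Idua, and Asb17os with Asb17, so their reads may be those of the neighbour. Pklr likewise shares positions with Hcn3, and Prdx2 with Junb and Rnaseh2a.

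Metallothioneins, which bind zinc and copper, fell. Mt2 (chr8:94172618-94173567) had 608, 879 and 569 counts untreated and 252, 117, 184 and 198 at 3 days (-1.89 ± 0.25, adjusted p = 0.00103). Mt1 had 1055, 1464 and 1174 untreated and 848, 696, 822 and 843 at 3 days (-0.61 ± 0.11, adjusted p = 0.00918). No treated library overlapped an untreated one in either gene, and their r with the erythroid score was 0.49 and 0.42. They were the 2 called members of the 10 genes of the glucocorticoid list, whose median was 0.06, where 1.24% of all genes were called.

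Of 32 cell cycle genes tested, 5 fell (E2f8, Rrm2, Cenpa, Ube2c and Cdc6), where 0.906% of all genes did, and 27 did not pass. The difference was negative for 31 of them, and the median was -0.29, against 0.00046 over all genes. E2f8, a repressor of the late cycle, had 359, 514 and 278 counts untreated and 149, 233, 185 and 198 at 3 days (-0.97 ± 0.22, adjusted p = 0.0358). Rrm2, a subunit of ribonucleotide reductase, had 1366, 1799 and 1372 untreated and 812, 1014, 1057 and 785 at 3 days (-0.72 ± 0.16, adjusted p = 0.0298). Cenpa, the centromeric histone, fell from 2232, 2572 and 2242 to 1687, 1831, 1800.5 and 1590.3 (-0.44 ± 0.08, adjusted p = 0.0119). Mki67 and Top2a, the common proliferation markers, were -0.29 ± 0.18 and -0.11 ± 0.13 and did not pass (adjusted p = 0.471 and 0.743). None of the 32 reached a within-group r of 0.7, and their median r was -0.02. Against the same untreated libraries all 32 were also lower at 14 days (median -0.35) and 29 at 1 day (median -0.17). Between 3 and 14 days 0 of them passed the test.

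Single members fell in other lists. Rsad2, the antiviral enzyme viperin, was the 1 called gene of 45 in the interferon response list, where 1.24% of all genes were called. It had 216, 309 and 527 counts untreated and 131, 121, 127 and 164 at 3 days (-1.27 ± 0.22, adjusted p = 0.00703). Isg15, Ifit1 and Irf7 had differences of -0.33 ± 0.15, -0.19 ± 0.22 and -0.039 ± 0.11 with adjusted p of 0.328, 0.726 and 0.911, and the median of the list was -0.04. Nadk2, the mitochondrial NAD kinase, was the 1 called gene of 31 in the NAD list, beside the same 1.24% of all genes. It fell from 605, 738 and 738 to 548, 446, 466 and 445 counts (-0.54 ± 0.10, adjusted p = 0.0127). Nampt was 0.06 ± 0.08 (95% interval -0.11 to 0.23) and Nnmt 0.26 ± 0.21 (-0.19 to 0.71), neither past the test (adjusted p = 0.779 and 0.601).

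Iron recycling macrophages were checked as neighbours of red cells in the spleen. Blvrb, biliverdin reductase B, which red cells also contain, was the 1 called gene of the 22 in that list, where 1.24% of all genes were called. It fell from 8529, 9601 and 8832 to 6769, 6555, 7607 and 6641 counts (-0.38 ± 0.07, adjusted p = 0.00935). Hmox1, which opens the haem ring, had 42576, 47373 and 39207 counts untreated and 26704, 23969, 37082 and 35383 at 3 days. The groups lay apart, but the difference of -0.50 ± 0.16 did not pass (adjusted p = 0.157). The iron exporter Slc40a1 was -0.29 ± 0.11 (adjusted p = 0.224), Spic 0.01 ± 0.10 and Vcam1 0.061 ± 0.14.

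Genes outside any list, named after their values were seen, included Asns, asparagine synthetase (445, 806 and 475 counts untreated, 229, 266, 312 and 217 at 3 days, -1.13 ± 0.18, adjusted p = 0.00263) and Myb, a factor of blood progenitors (-0.43 ± 0.09, adjusted p = 0.0307). Both had an r below 0 with the erythroid score. Nqo1, a quinone reductase (-1.03), Gclm, of glutathione synthesis (-0.69), and Prdx2, a peroxiredoxin abundant in red cells (-0.47), fell with r between 0.45 and 0.55.

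The 61 rises lay between 0.24 and 1.18 on the log2 scale, and the number called was 11 without untreated replicate 2. All 61 also lay above the same untreated libraries at 1 day (median 0.40) and at 14 days (median 0.23). Against the 2 libraries at 1 day, 3 of them were called lower at 3 days. Among these were Cxcr4 (-0.80) and Rasl11b (-0.86), each with an adjusted p of 0.0269 in limma. Ccl19 (chr4:42754525-42756528), the chemokine that draws T cells and dendritic cells to their zone, was the 1 called of 22 chemotaxis ligands. Over all genes 1.24% were called. It had 5730.0, 5468 and 7056 counts untreated and 8028, 9669.6, 8678 and 7862 at 3 days (0.50 ± 0.09, adjusted p = 0.00918). The other ligand of the same receptor, Ccl21a, had 7372, 6181 and 8346 untreated and 10149, 13176, 9842 and 8668 at 3 days, groups that lay apart without passing the test (0.51 ± 0.14, adjusted p = 0.0888). Cxcl9 (0.42 ± 0.10, adjusted p = 0.063), Cxcl10 (0.30 ± 0.09, adjusted p = 0.129) and Ccl2 (0.10 ± 0.26, adjusted p = 0.904) did not pass. The median of the ligands was 0.14.

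Cxcr4, the receptor of the homing chemokine CXCL12 (chr1:128588199-128592299), was the 1 called of 17 chemotaxis receptors, where 1.24% of all genes were called. It had 4555, 4522 and 6536 counts untreated and 7879, 9235, 7464 and 10529 at 3 days (0.76 ± 0.13, adjusted p = 0.00534). Ifitm1, an interferon-inducible membrane protein in none of the lists, had 2786, 2470.1 and 3208 untreated and 4437, 3870.3, 4274 and 4306 at 3 days (0.59 ± 0.09, adjusted p = 0.0019). In both genes every treated library was above every untreated one. Other interferon-inducible genes outside the lists fell, Isg20 with -0.68 ± 0.11 (adjusted p = 0.0031) and Ube2l6 with -0.68 ± 0.14 (adjusted p = 0.0253). These genes were named after their values were seen. The r of Isg20 and Ube2l6 with the erythroid score was 0.52 and 0.45. Nfkbia, the inhibitor of NF-kB, was the 1 called of 19 immediate early genes, beside the same 1.24% of all genes (0.29 ± 0.07, adjusted p = 0.0464). It lost the call in 13 of 22 alternative fits.

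Several called rises belonged to no list. Apoe, apolipoprotein E, an abundant transcript here, had 87179, 82789 and 95094 counts untreated and 118155, 124665, 125480.1 and 120363 at 3 days (0.47 ± 0.08, adjusted p = 0.00866). Apoc1 (0.65 ± 0.14, adjusted p = 0.0227) lies next to it, and Apod rose as well (0.95 ± 0.22, adjusted p = 0.0442). Ch25h, which makes the B cell guidance oxysterol precursor 25-hydroxycholesterol, had 95.9, 101.4 and 159 untreated and 187, 231, 219 and 225 at 3 days (0.89 ± 0.18, adjusted p = 0.0169). Grem1, a BMP antagonist of stromal cells, rose by 0.85 ± 0.19 (adjusted p = 0.0403). Other genes with large rises were Gm16316 (1.04), Rcan2 (0.85), Rasl11b (0.77) and Serpina1e (0.69). The row shared by Mrgpra2a and Mrgpra2b, near-identical copies, had the largest rise of all, 1.18.

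A row over Mir146 (chr11:43371017-43374461), whose microRNA restrains NF-kB signalling, had 1463, 1289 and 1362 counts untreated and 1902, 1916, 1760.4 and 1556 at 3 days (0.38 ± 0.08, adjusted p = 0.032). It measures the polyadenylated primary transcript. Its 5p product (RefSeq, GRCm38.p6, minus strand) is printed with the seed in capitals, beside Nfkbia because both restrain the same pathway.
mmu-miR-146a-5p: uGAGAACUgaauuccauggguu

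**Figure D5:**
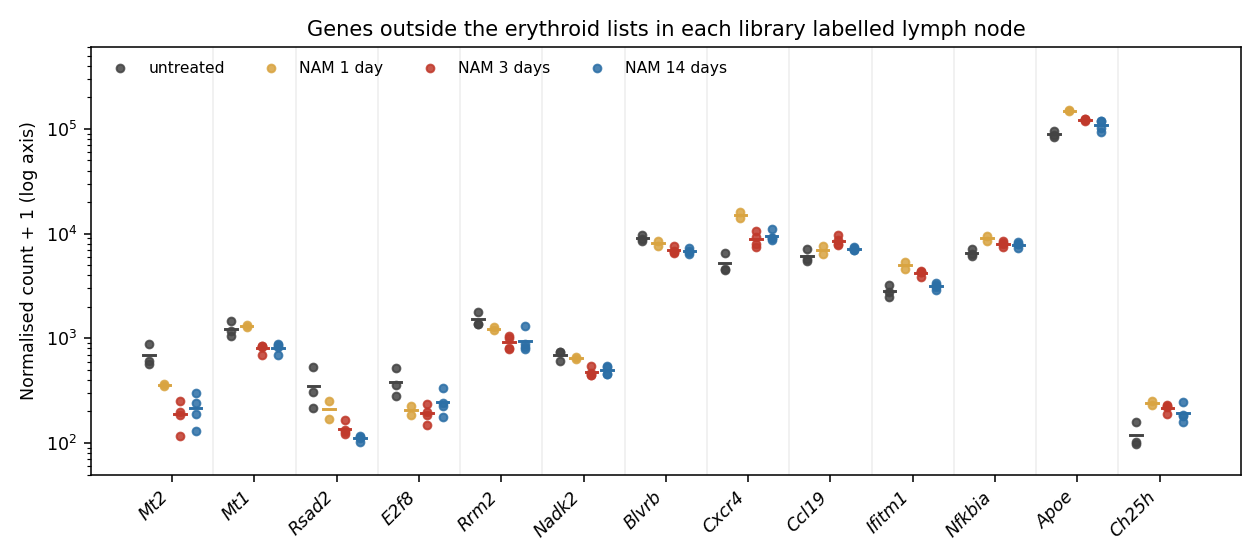
Normalised count + 1 (log axis) of 13 genes outside the erythroid lists in each of the 13 libraries, coloured by group, with the group mean as a bar. The 7 genes at the left fell at 3 days and the 6 at the right rose, with no overlap between the 3 day and the untreated libraries.

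The other cell type lists held 0 called genes at 3 days, where 1.24% of all genes were called. In lists this short 0 is near that share. These were B cell (17 tested, median 0.01), plasma cell (12, 0.24), T cell (18, 0.09), NK and cytotoxic (15, 0.05), dendritic cell (12, 0.12), platelet and megakaryocyte (16, -0.25), neutrophil and myelopoiesis (21, 0.28), and basophil and mast cell (8, -0.09). Platelet precursors also use Gata1. The summed level of their list was 18702 to 19323 normalised counts untreated and 12316 to 21974 at 3 days, and Pf4, platelet factor 4, was -0.21 ± 0.16 (adjusted p = 0.595). Differences were negative for 15 of the 16 platelet genes, as they were for all 61 erythroid genes and for 9082 of the 18215 genes tested. Gp1ba, a chain of the platelet receptor for von Willebrand factor, had 258, 388 and 306 counts untreated and 168, 111, 295 and 202 at 3 days, with overlapping ranges. Its fold change was -0.77 ± 0.27 (95% interval -1.34 to -0.20, adjusted p = 0.189). Differences were negative for 5 of the 18 T cell genes, with Cd3e at -0.29 ± 0.14 (95% interval -0.60 to 0.0084) and Cd3g at 0.29 ± 0.08 (0.13 to 0.46, adjusted p = 0.0894). They were negative for 6 of the 15 NK and cytotoxic genes, with Ncr1 at -0.061 ± 0.22 (-0.52 to 0.39) and Nkg7 at 0.23 ± 0.09 (0.03 to 0.43, adjusted p = 0.267). The negative counts were 8 of 17 for B cell, 3 of 12 for plasma cell, 5 of 12 for dendritic cell and 4 of 8 for basophil and mast cell genes. Of the 21 neutrophil genes 6 were negative, with Mpo at -0.17 ± 0.31, S100a8 at -0.10 ± 0.25 and Elane at 0.40 ± 0.26. At an unadjusted p under 0.05, which 14.8% of all genes reached, 4 of 16 platelet, 4 of 21 neutrophil, 3 of 18 T cell and 5 of 12 dendritic cell genes differed.

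Lists of other tissues that dissection could carry in held 0 called genes between 3 days and untreated, where 1.24% of all genes were called. Outside 1 day replicate 1 the pancreas list was low. The pancreas list (10 tested) summed to 1198 to 1270.3 normalised counts untreated and 804 to 1099 at 3 days, the fat list (6) to 1258 to 1635 normalised counts untreated and 1251 to 1523 at 3 days, and the connective tissue list (8) to 7118 to 9144 normalised counts untreated and 6304 to 9049 at 3 days. The 18 circadian clock genes (median -0.04) and the 18 of fatty acid oxidation and fasting (median 0.02) held 0 called genes too. Pdk4, a fasting-induced kinase, was 0.75 ± 0.28 (adjusted p = 0.226).

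The same fit with the erythroid score as a covariate left 0 genes at an adjusted p under 0.05. The score is tied to treatment, and the SE grew by a median factor of 2.49 over all genes. The sets above were also sorted by their correlation with this same score, so their values in this fit are a description and no independent test. At an unadjusted p under 0.05, 607 of 18215 genes differed (3.33%). The proportion was 16 of 61 among the rises, all in the same direction, with a median log2 difference of 0.35 in place of 0.38. Among the 97 other falls it was 16, all in the same direction, and the median moved from -0.86 to -0.48. For the 47 erythroid genes, which belong to the score, the median was -0.06, and for the 17 falls chosen by their r with it 0.20.

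At 14 days of NAM the erythroid score was 8.17, 8.52, 8.14 and 8.84, and at 1 day 9.10 and 9.34. The median difference of the 61 erythroid genes from untreated was -1.17 at 14 days and -0.42 at 1 day, beside -1.50 at 3 days; these comparisons share the untreated libraries. Compared directly, 0 of the 61 genes passed the test between 3 and 14 days in limma, although 52 had a negative difference and 17 had an unadjusted p under 0.05, which 5.84% of all genes reached. Slc4a1 was -2.03 at 3 days relative to 14 days (adjusted p = 0.622). Against 1 day, 59 of the 61 differences were negative, with a median of -0.92, and 13 passed the test. With 1 day replicate 1 or replicate 2 left out, 0 passed in limma (56 and 60 negative). Without 3 day replicate 2 or replicate 3, 1 passed, and without 3 day replicate 4, 7 did. With all libraries Slc4a1 was -4.00 (adjusted p = 0.0439) and Car2 -1.69 (adjusted p = 0.0223).

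Across all genes, 2 differed between 3 and 14 days (0.011%) and 65 between 3 days and 1 day (0.357%). Cxcl10, an interferon-induced chemokine, was higher at 3 days than at 14 days (3381, 3289, 3858 and 3141 against 2000.4, 2139, 2327 and 2273 counts, 0.64, adjusted p = 0.0112). Elane, neutrophil elastase, made in early granulocyte precursors, was too (485, 434, 656 and 364 against 170.4, 142, 192 and 114 counts, 1.64, adjusted p = 0.0371). Elane was the 1 called of 21 neutrophil genes in this comparison, of which 17 were higher at 3 days and 15 had an unadjusted p under 0.05, with a median of 0.79. Neither Cxcl10 nor Elane passed the test between 3 days and untreated. The count of 2 was 0 without 14 day replicate 2, without 3 day replicate 1 or without 3 day replicate 3, and 9 without 14 day replicate 1, 6 without 14 day replicate 3, 4 without 3 day replicate 4 and 1 without 14 day replicate 4.

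Of the 65 genes that differed from 1 day, 58 were lower at 3 days, but without 1 day replicate 1 the calls were 12 lower and 12 higher. Errfi1, a feedback inhibitor of the EGF receptor, had 4454 and 5606 counts at 1 day and 1321, 1369, 1182 and 1863 at 3 days (-1.82, adjusted p = 0.000268). Slpi, a protease inhibitor, was -0.95 (adjusted p = 0.00241), Igkv10-96, an immunoglobulin segment, -1.14 (adjusted p = 0.00241), and Zfp36l2, an mRNA decay factor, -0.71 (adjusted p = 0.00305). Pcdh18, a protocadherin, was 1 of the 7 higher genes, with 535, 485, 634 and 475 counts at 3 days against 212 and 225 at 1 day (1.27, adjusted p = 0.000268). Replicate 1 at 1 day stood apart from all other libraries on the first principal component (65.0, against -18.5 to 6.14 for the others). Without it the count was 24, without 1 day replicate 2 it was 42, without 3 day replicate 2 it was 14 and without 3 day replicate 3 it was 31. The comparison of 3 days with untreated, fitted without that library, gave 175 genes, 37 of them erythroid.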

How the data were processed

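RNA from 13 libraries labelled lymph node was sequenced as polyadenylated RNA. The authors aligned reads with STAR 2.4.0 to mm10 (per the labels, which also name FastQC, Picard, SAMtools and DESeq2) and deposited 1 table of DESeq2-normalised read counts, a signal on a linear scale. Strand use is not given in the sources used here. All per-library columns were mapped to samples by name (0 unmapped). Values under 1000 reads divided by the step of their library were whole within 0.05 of a read in 100% of cases, and all values were rounded to reads for the depths and count tests. Scaling by size factors makes each value relative to the other genes of its library.

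Of 56414 rows, 18215 had a mean of at least 10. Values were tested as log2(value + 1) with limma 3.58.1 (trend, R 4.3.3), all 4 groups in 1 fit, two-sided, with Benjamini-Hochberg adjustment over 18215 genes. Alternatives included edgeR 4.0.16 and DESeq2 1.42.0 on recovered reads. Tested on simulated data for 3 days against untreated with 200 of 18215 genes changed, the fit recovered 74.5% of 2-fold and 97.0% of 4-fold changes, with 6.29% and 6.28% false among the calls. Intervals are 95% from the fit.

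Genes were named as follows: the 10 largest called rises and 10 largest called falls outside the erythroid lists, with 1 symbol and no overlap; the 8 largest erythroid falls; a fixed panel; up to 3 called genes of each other list; and up to 5 called in each direct comparison (85 genes, after leaving out some that are not reported here). Other genes named were chosen after their values were seen. The comparison, the members and the lists were chosen with earlier results of these data known. The fit of 3 days against untreated without 1 day replicate 1 was added after seeing the data.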

Additional observations from a re-analysis of the deposited data

Results flagged for a closer look

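In 4 of 87 sets of 3 day values tested with Dixon's criterion, 1 library stood far from the other 3, and chance flags about 1 set in 20. Acot1 was at 483 normalised counts in replicate 4, and Cfd, an adipocyte protease, at 70.0 in the same replicate. Epb42 was at 87.3 and Sowaha at 36.5 in replicate 1, the treated library with the highest erythroid score. The reason was not tested.

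Of the genes that passed the test between durations of NAM, 7 are given here, chosen by smallest p. Relative to 14 days, the 3 day libraries were higher for Cxcl10 (0.643 on the log2 scale) and Elane (1.64). Relative to 1 day, they were lower for Errfi1 (-1.82), Slpi (-0.953), Igkv10-96 (-1.14) and Zfp36l2 (-0.711) and higher for Pcdh18 (1.27). The 1 day group had 2 libraries, of which replicate 1 stood apart and held pancreas transcripts.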

How the results depend on the processing

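The erythroid falls numbered 32 to 47 when 1 library was left out, and 35 to 52 under the other alternatives except the erythroid covariate (0). For 3 days against untreated, the 226 calls became 615 at an unadjusted p with a 1.5-fold change, 557 with library weights, 506 with DESeq2, 0 with the covariate and 85 to 302 when 1 library was left out. The 179 calls outside the erythroid lists became 565, 505, 455, 0 and 53 to 255 in the same order, with the lowest value without untreated replicate 2. edgeR called 206 genes, and 200 of the 226 were among them. DESeq2 called 221 of the 226. The 2 calls against 14 days became 278 at an unadjusted p with a 1.5-fold change, 1 without a filter, 4 with only those 2 groups, 0 with the covariate, 1 with edgeR, 55 with DESeq2 and 0 to 9 when 1 library was left out. The 65 calls against 1 day became 550, 43 without a filter, 19 with weights, 0 with the covariate, 183 with DESeq2 and 14 to 68 when 1 library was left out. Under quantile normalisation the red pulp macrophage list had 2 calls and the immediate early list 0. The cause was not tested.

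With the erythroid score as covariate the log2 difference changed sign, among named genes that were called, for Add2 (0.793), Alas2 (0.0700), Apol8 (1.65), Bex4 (0.126), Epb42 (2.62), Gm20161 (1.96), Kel (0.602), Klf1 (0.792), Rhag (0.453), Rhd (0.997), Slc2a4 (0.00784), Slc4a1 (1.79) and Sowaha (1.60). Of 43 named genes that were called, 16 kept the call under every alternative except that covariate. With the sign unchanged, the call was lost in 11 to 13 alternatives for Nfkbia, Apod, Serpina1e and Sowaha (22 run) and for Gm20161, Slc26a1 and Gm16316 (21 run). Gm20161 and Sowaha also lost it with the sign changed, under the covariate.

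With the replicate number as a block, 167 genes were called for 3 days against untreated (46 erythroid, 121 outside), 4 against 14 days and 47 against 1 day. Deviations of same-numbered untreated and 3 day libraries correlated at 0.0365, -0.0756 and -0.0231. Those of unlike-numbered libraries correlated at -0.05294 to 0.08025. With so few libraries these values cannot tell whether the numbers pair the libraries.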
